A study of Homo sapiens with 4 samples.

Results

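The genes described here are the transcriptional coactivators YAP1 and WWTR1 (the gene of TAZ), the DNA-binding factors TEAD1 and TEAD4, and 6 genes widely used as readouts or feedback arms of the same pathway: CTGF, CYR61, ANKRD1, AMOTL1, AMOTL2 and LATS2. They were taken by symbol from the tables of counts per gene, in which all 10 were found among 23228 genes, CTGF and CYR61 under these older symbols of CCN2 and CCN1. The list was chosen from results of these same samples, with the fold changes between liquiritigenin and vehicle in view. The values of the 10 genes in that comparison are therefore a description, and the calls counted among them are not independent evidence. Total RNA was sequenced from ES2 cells, an established human ovarian cancer cell line, grown in phenol red-free medium with charcoal-treated serum and given either vehicle or liquiritigenin (Liq), a plant flavanone that the study used as an agonist of estrogen receptor beta, for 24 h. The dose of Liq was 100 µM by the methods of the study, and there were 2 samples per group, vehicle 1 and 2 and Liq 1 and 2. All samples come from 1 cell line, and nothing states that the samples of a group were separate cultures, so p-values measure only the spread between these samples, which may be technical.

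YAP and TAZ carry no DNA-binding domain of their own and act by joining TEAD factors on chromatin. The Hippo kinase cascade, which ends in LATS1 and LATS2, phosphorylates YAP and TAZ and keeps them out of the nucleus, whereas spread cell shape, stiff matrix and several growth signals let them enter it. Because this control acts on the proteins, the pathway is usually read at the RNA level through its targets, among them the secreted matricellular proteins encoded by CTGF and CYR61 and the ankyrin repeat protein encoded by ANKRD1. The angiomotin family (AMOT, AMOTL1 and AMOTL2) binds YAP and holds it at junctions and actin, and AMOTL2 and LATS2 are known as targets that feed back on YAP.

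The smallest library held 34573053 counts on genes and the largest 48933893, and 3 counts, the smallest level taken as detectable, corresponded to 0.0598 to 0.0843 CPM (CPM is a count taken relative to the TMM-adjusted total of its library, in reads per megaread). The identity of the cells was checked with short lists of markers. The mesenchymal genes VIM, CDH2 and FN1 were all expressed, at 115 to 7727 CPM on average in vehicle, and of 5 epithelial genes KRT7, KRT8 and KRT18 were expressed while CDH1 had 0 counts in every sample and EPCAM had 1 to 3. Of the ovarian histotype genes described, NAPSA had 1 to 8 counts per sample, and PAX8 and WT1 averaged 1.21 and 4.46 CPM in vehicle. Several of these markers moved with Liq by the adjusted p-value of edgeR, which 24.0% of all tested genes passed. PAX8, WT1, VIM, KRT18 and FN1 were lower, with log2 fold changes of -1.34, -0.68, -0.28, -0.24 and -0.15. KRT7 and CDH2 were higher, at 0.51 and 0.22. PAX8 had few counts, 49 and 46 in vehicle and 12 and 29 in Liq. With offsets that follow the expression level, FN1 (-0.031) and KRT18 (-0.17) did not pass. FN1 also did not pass with DESeq2 (-0.16) or upper-quartile scaling (-0.12). The part of these markers in the results that follow was not tested. The leukocyte genes PTPRC and CD3E had 0 or 1 counts and CD14 had 3 to 11, and of 3 endothelial genes only CDH5 was above 10 counts, with 1712 to 2239. The receptor genes ESR2, which encodes estrogen receptor beta, and ESR1 had 4 to 14 and 17 to 34 counts per sample.

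TEAD factors recognise the letters GGAATG, and the promoters of 3 of the genes are shown for where these letters stand. RefSeq promoter windows of 300 bases, 250 before and 50 from the start site on, were given for 7 of the 10 genes, some with a pair of start sites, which made 9 windows. CYR61, TEAD1 and TEAD4 had no entry. GGAATG was searched on both strands, and 5 of the 9 windows, each of another gene, had at least 1 match, against 4928 of 35116 RefSeq windows of the same length. CTGF had 3 matches, a number reached by 0.128% of all windows, and ANKRD1 had 2, reached by 1.37%. The AP-1 motif was searched as TGANTCA, with any base allowed in the middle. It was found once, as TGATTCA in the ANKRD1 window, and in 7.71% of all windows, with no overlap with GGAATG. The CArG box of serum response factor was found in 0 of the 9 windows and in 1.29% of all. AMOTL1, which also passed the adjusted p-value, had 0 matches, and so did both windows of WWTR1 and the first of AMOTL2. The windows of CTGF and ANKRD1, which fell most, and the second window of AMOTL2, which did not fall, are printed 5′ to 3′ on the strand of the gene, with GGAATG or its reverse complement in capitals. Each matched 1 place on its chromosome of GRCh37, at chr6:132272463-132272762 (minus strand) for CTGF, chr10:92680795-92681094 (minus strand) for ANKRD1 and chr3:134093240-134093539 (minus strand) for the second AMOTL2 start site.
CTGF: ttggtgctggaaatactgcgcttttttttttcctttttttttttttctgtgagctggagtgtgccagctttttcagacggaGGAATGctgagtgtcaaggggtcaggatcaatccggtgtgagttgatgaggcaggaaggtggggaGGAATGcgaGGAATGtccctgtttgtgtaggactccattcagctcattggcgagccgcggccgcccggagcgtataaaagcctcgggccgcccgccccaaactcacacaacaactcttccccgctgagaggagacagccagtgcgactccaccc
ANKRD1: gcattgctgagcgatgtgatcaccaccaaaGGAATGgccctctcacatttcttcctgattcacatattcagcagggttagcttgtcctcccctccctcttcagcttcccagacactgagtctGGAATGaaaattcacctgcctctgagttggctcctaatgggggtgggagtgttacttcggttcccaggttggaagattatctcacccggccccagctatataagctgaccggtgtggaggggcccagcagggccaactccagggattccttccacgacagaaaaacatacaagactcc
AMOTL2: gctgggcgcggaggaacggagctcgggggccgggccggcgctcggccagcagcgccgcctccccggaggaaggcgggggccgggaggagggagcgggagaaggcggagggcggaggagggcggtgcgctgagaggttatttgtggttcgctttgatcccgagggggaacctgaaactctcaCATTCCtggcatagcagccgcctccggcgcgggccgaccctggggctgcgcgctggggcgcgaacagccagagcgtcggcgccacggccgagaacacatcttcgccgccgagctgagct

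In the CTGF window the matches began at positions -169, -104 and -95 from the start site, and in the ANKRD1 window at -220 and -128. The single AMOTL2 match lay on the opposite strand, from position -69 to -64. YAP1 itself had 1 match, beginning at position -162, and LATS2 had 1 that began at position 10, past its start. These matches describe the letters only and no binding was measured here. CTGF, ANKRD1, AMOTL2 and LATS2 are on the list as known targets of the pathway, so the shares over all windows are a description and not a test. The printed windows were picked by fold change, and whether matches go with fold changes was not tested.

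**Figure D1:**
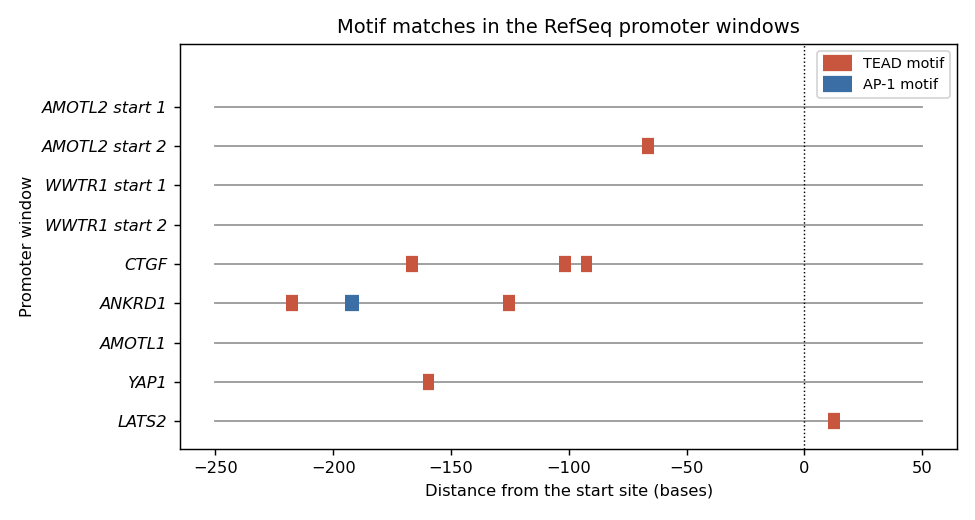
Positions of the TEAD motif (red) and the AP-1 motif, searched as TGANTCA (blue), in the 9 RefSeq promoter windows of 7 of the genes. They are drawn against the distance from the start site in bases, with the start site dotted. CTGF holds 3 TEAD matches and ANKRD1 2, AMOTL2, YAP1 and LATS2 1 each, and AMOTL1 and WWTR1 none.

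Liq was compared with vehicle to see whether the output of the pathway and its own components differed after 24 h. CTGF fell 2.32-fold and ANKRD1 fell 1.58-fold with Liq, AMOTL1 fell by less than 1.5-fold, and the other 7 genes did not pass the test. CYR61, the target most often paired with CTGF, averaged 1544 CPM in vehicle and 1672 CPM in Liq. Calls were made with edgeR's quasi-likelihood test over 13546 tested genes and needed both a 1.5-fold difference and a Benjamini-Hochberg adjusted p-value under 0.05. All 10 genes passed the filter on low counts. By this rule 2 of the 10 were called, both lower, where 6.45% of all tested genes were called in either direction, 4.29% higher and 2.16% lower. By the adjusted p-value alone 3 of the 10 passed, all lower, against 24.0% of all tested genes, 12.6% higher and 11.3% lower. In 7 of the 10 the Liq and vehicle samples did not overlap, as in 61.7% of all tested genes. The median log2 fold change was -0.068 over the 10 genes and 0.0062 over all tested genes. Offsets that follow the expression level moved the split of called genes over the whole table from 581 higher and 293 lower to 354 and 394, with CTGF and ANKRD1 called lower in either case.

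**Figure D2:**
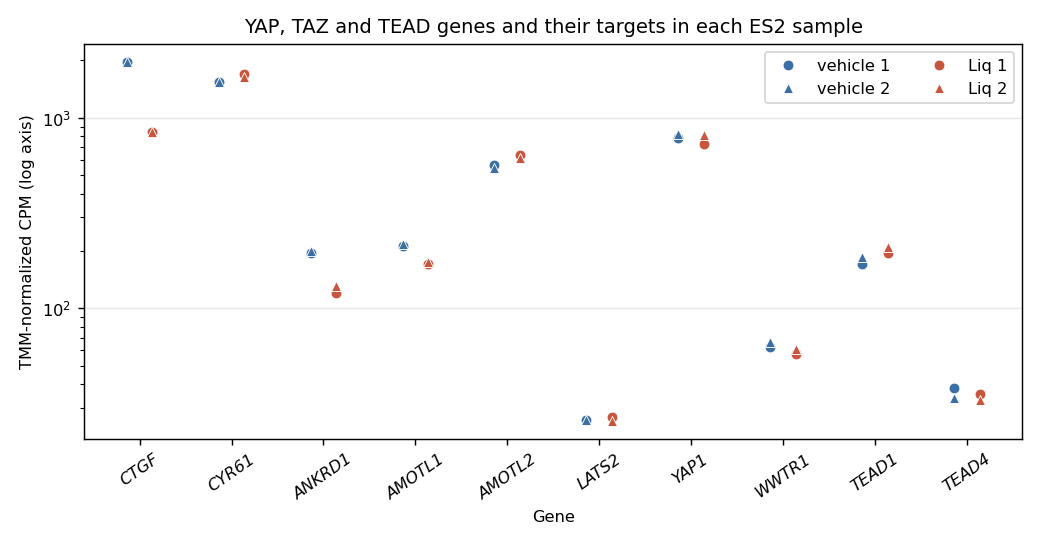
TMM-normalized CPM (vertical log axis) of the 10 genes (horizontal axis) in each sample, with vehicle in blue, Liq in red, replicate 1 as circles and replicate 2 as triangles. The Liq points of CTGF lie at 843 and 844 CPM under vehicle points at 1954 and 1966, while those of YAP1, LATS2 and TEAD4 overlap the vehicle points.

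Of the classical targets, CTGF (connective tissue growth factor, CCN2, on chromosome 6 from 132269316 to 132272512, minus strand, GRCh37) had the largest difference of the 10 genes. Vehicle samples held 80350 and 73583 counts of it and Liq samples 29969 and 42347, or 1954 and 1966 CPM against 843 and 844 CPM. Both Liq samples lay far below both vehicle samples, and the 2 samples of each group were nearly equal. The log2 fold change was -1.22 (SE 0.057, 95% interval -1.33 to -1.10, n = 2 per group). CTGF was among the most abundant transcripts of these cells, ranked 25 and 24 by CPM among all genes in vehicle and 99 and 96 in Liq. In a newer annotation the span of the non-coding gene LINC01013 on the opposite strand reaches all 5 CTGF exons. Whether exons of LINC01013 overlap them was not checked. LINC01013 is not listed in the count tables, and whether reads were counted by strand is not given in the sources used here. Any of its reads that fall on CTGF exons would be counted as CTGF if strand was not used.

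CYR61 (CCN1, on chromosome 1 from 86046444 to 86050272, plus strand, GRCh37) encodes the matricellular protein closest in use to CTGF as a YAP readout. Its counts were 63580 and 57687 in vehicle and 60556 and 82404 in Liq, or 1546 and 1541 CPM against 1703 and 1642 CPM. The Liq samples were both above the vehicle samples, by a log2 fold change of 0.12 (SE 0.056, 95% interval 0.00012 to 0.23) that did not pass the adjusted threshold. With offsets along the expression level the log2 fold change was 0.22 and passed. ANKRD1 (cardiac ankyrin repeat protein, on chromosome 10 from 92671853 to 92680844, minus strand, GRCh37) went with CTGF. It had 8026 and 7472 counts in vehicle and 4249 and 6534 in Liq, or 195 and 199.6 CPM against 119 and 130 CPM. Its groups did not overlap, and the log2 fold change was -0.66 (SE 0.072, 95% interval -0.81 to -0.51). Over the 11 alternative fits it ranged from -0.72 to -0.60, so that it stayed past 1.5-fold in each of them.

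**Figure D3:**
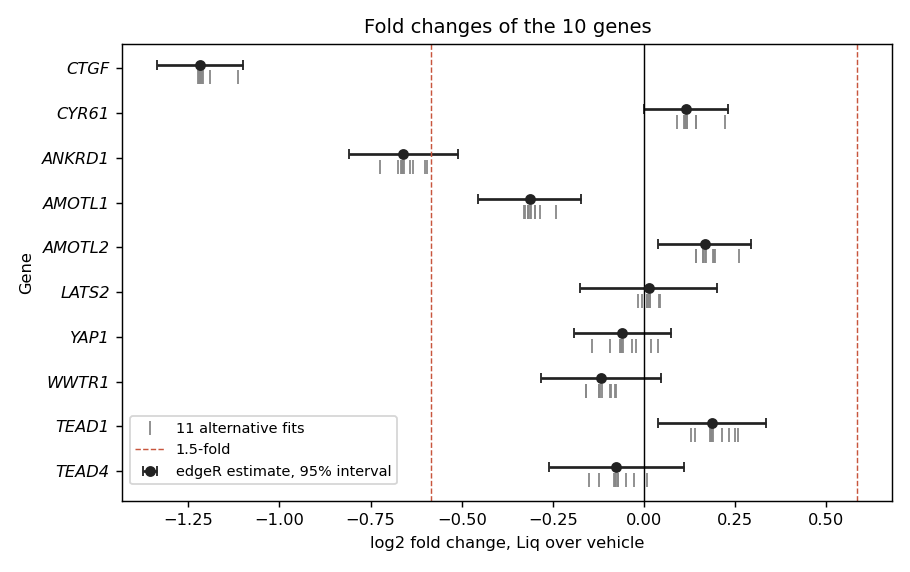
Log2 fold changes of Liq over vehicle (horizontal axis) for the 10 genes (vertical axis), as edgeR estimates with 95% intervals (black, n = 2 per group) and as the estimates of 11 alternative fits (grey ticks), with 1.5-fold dashed in red. CTGF at -1.22 and ANKRD1 at -0.66 lie beyond the dashed line, and the estimates of YAP1, LATS2 and TEAD4 fall on both sides of 0 across the fits.

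Ratios of counts within 1 library do not depend on how libraries are scaled. They restate the differences between the targets given above and are not independent evidence. The number of CTGF counts per CYR61 count was 1.26 and 1.28 in vehicle against 0.495 and 0.514 in Liq, 2.52-fold lower with Liq. The number of ANKRD1 counts per CYR61 count was 0.126 and 0.13 in vehicle and 0.0702 and 0.0793 in Liq, 1.71-fold lower. Between CTGF and ANKRD1 the ratio also moved, from 10.01 and 9.85 to 7.05 and 6.48 CTGF counts per ANKRD1 count, so the 2 lower targets differed from each other by less than each differed from CYR61. None of these ratios overlapped between the groups, where 61.7% of tested genes taken singly did not overlap either. The share over other pairs of genes was not computed. LATS2 counts per LATS1 count did overlap, at 0.917 and 0.79 in vehicle and 0.946 and 0.829 in Liq.

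**Figure D4:**
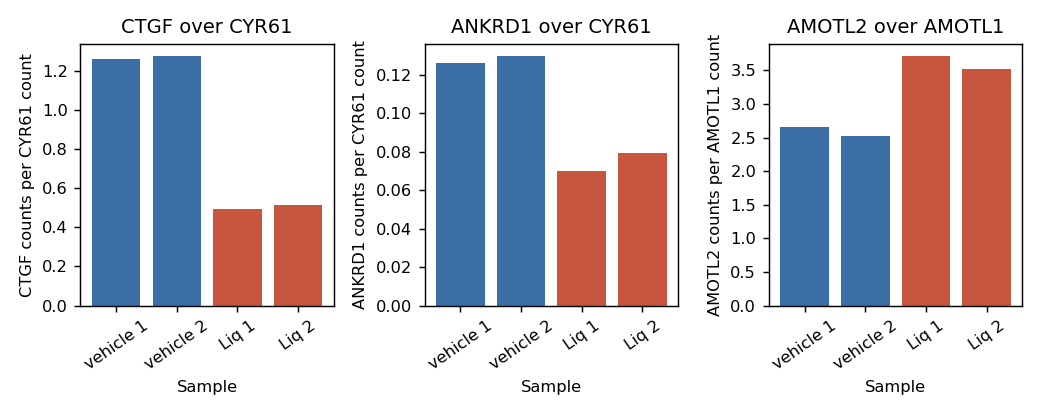
Ratios of raw counts within each library (vertical axes, from 0) for CTGF over CYR61, ANKRD1 over CYR61 and AMOTL2 over AMOTL1, 1 bar per sample with vehicle in blue and Liq in red. CTGF per CYR61 stands at 1.26 and 1.28 in vehicle and at 0.495 and 0.514 in Liq, and AMOTL2 per AMOTL1 is higher in both Liq samples.

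Among the feedback genes, the angiomotin paralogues AMOTL1 and AMOTL2 differed in direction. AMOTL1 (chromosome 11 from 94439597 to 94609913, plus strand, GRCh37) had 213 and 217 CPM in vehicle and 171 and 175 CPM in Liq. Its groups did not overlap, and it fell by 0.31 on the log2 scale (SE 0.069, 95% interval -0.46 to -0.17), which passed the adjusted p-value but not 1.5-fold. Without vehicle replicate 2 the log2 fold change was -0.30 and no longer passed. AMOTL2 (chromosome 3 from 134074189 to 134094321, minus strand, GRCh37) had 567 and 547 CPM in vehicle and 635 and 615 CPM in Liq. Both Liq samples were the higher ones, by a log2 fold change of 0.17 (SE 0.062, 95% interval 0.038 to 0.29) that did not pass the adjusted threshold. It passed in 5 of the 11 alternative fits, among them those with upper-quartile scaling (0.19), with offsets along the expression level (0.26) and without Liq replicate 2 (0.19). AMOTL2 counts per AMOTL1 count were 2.66 and 2.52 in vehicle and 3.71 and 3.52 in Liq. The span of RPL39P5, a pseudogene of RPL39 on the same strand that the tables do not list, reaches 1 AMOTL2 exon. Any of its reads that fall on that exon would be counted as AMOTL2. LATS2 (chromosome 13 from 21547175 to 21635725, minus strand, GRCh37), the kinase that restrains YAP and TAZ, had 26.0 and 25.8 CPM in vehicle and 26.7 and 25.6 CPM in Liq. The groups overlapped, and the log2 fold change of 0.012 had a 95% interval of -0.18 to 0.20.

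The coactivator transcripts did not pass the test. YAP1 (chromosome 11 from 101981178 to 102104155, plus strand, GRCh37) had 32159 and 30760 counts in vehicle and 25812 and 40781 in Liq, or 782 and 822 CPM against 726 and 813 CPM. The groups overlapped, and the log2 fold change was -0.06 (SE 0.064, 95% interval -0.19 to 0.073). WWTR1 (chromosome 3 from 149235022 to 149454501, minus strand, GRCh37) had 62.6 and 66.2 CPM in vehicle and 57.7 and 60.9 CPM in Liq. Both Liq samples were the lower ones, and the log2 fold change of -0.12 had a 95% interval of -0.28 to 0.045. The antisense gene WWTR1-AS1 is listed in the tables, and its span reaches 2 WWTR1 exons. Reads would be set aside as ambiguous only where exons of both genes overlap and strand was not used, which was not checked. The spans of unlisted non-coding genes on the opposite strand reach an exon of YAP1 and of AMOTL1 as well. YAP1 counts per WWTR1 count were 12.5 and 12.4 in vehicle and 12.6 and 13.3 in Liq. Per kilobase of transcript, YAP1 was the more abundant coactivator transcript in both groups.

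Of the TEAD factors, TEAD1 (chromosome 11 from 12695968 to 12966284, plus strand, GRCh37) had 170.1 and 185 CPM in vehicle and 195 and 208 CPM in Liq. Both Liq samples were above both vehicle samples, and the log2 fold change of 0.19 (SE 0.072, 95% interval 0.039 to 0.33) did not pass the adjusted threshold. It passed in 4 of the 11 alternative fits, with upper-quartile scaling (0.21), with offsets along the expression level (0.26), without Liq replicate 1 (0.23) and with the replicate number as a block. TEAD4 (chromosome 12 from 3068496 to 3149842, plus strand, GRCh37) had 37.9 and 33.9 CPM in vehicle and 35.3 and 32.955 CPM in Liq. Its groups overlapped, and the log2 fold change of -0.076 had a 95% interval of -0.26 to 0.11.

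The order of the 10 genes by level was set with CPM divided by the length of the canonical transcript in kilobases, which assumes that this transcript is the main one in ES2 cells. In vehicle CTGF stood first at 838 ± 3.4 CPM per kb (SD, n = 2), followed by CYR61 at 678 ± 1.7, YAP1 at 148 ± 5.2, AMOTL2 at 114 ± 2.9 and ANKRD1 at 110.3 ± 1.7. Below these came AMOTL1 at 23.9, TEAD4 at 21.0, TEAD1 at 18.8, WWTR1 at 12.8 and LATS2 at 4.67 CPM per kb. No neighbours in this order overlapped between their 2 samples. TEAD4 stood above TEAD1 only per kilobase, with canonical lengths of 1.71 kb for TEAD4 and 9.417 kb for TEAD1. TEAD1 counts per TEAD4 count were 4.48 and 5.45 in vehicle and 5.54 and 6.32 in Liq. With Liq, CYR61 stood first at 734 ± 19 CPM per kb and CTGF second at 361 CPM per kb, with ANKRD1 at 69.7 ± 4.2. AMOTL1, at 19.3 CPM per kb, came after TEAD1 at 21.4 and TEAD4 at 19.9, and its samples overlapped those of TEAD4. Neighbours whose means differed by less than the sum of their SDs were AMOTL2 and ANKRD1 and TEAD4 and TEAD1 in vehicle, and YAP1 and AMOTL2, TEAD1 and TEAD4, and TEAD4 and AMOTL1 in Liq.

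A list of 17 other well-known YAP and TAZ targets was written from general knowledge, with earlier results of these data known. Its genes changed in both directions, each by less than CTGF and ANKRD1. CTGF and ANKRD1 were chosen with their fold changes in view, so this difference in size is a description and not evidence. All 17 were tested, 0 reached the call of 1.5-fold with edgeR (also 0 at an unadjusted p under 0.05, and 0 with DESeq2) where 6.45% of all tested genes did, and 9 passed the adjusted p-value alone, 7 higher and 2 lower. The shares of all tested genes that did so are the 12.6% and 11.3% given above. The median log2 fold change of the list was 0.13, and its median without regard to sign was 0.23, against 0.14 for the 10 genes and 0.16 for all tested genes. CCDC80, a secreted matrix protein gene, rose from 253 to 330.5 CPM on average, which was 0.39 on the log2 scale (SE 0.066; edgeR adjusted p = 9.6e-05). DOCK5, an exchange factor for RAC, GADD45A, a stress response gene, CRIM1, a transmembrane protein that binds growth factors, and AXL, a receptor tyrosine kinase, rose by 0.35, 0.30, 0.28 and 0.23 on the log2 scale. IGFBP3, which binds insulin-like growth factors, fell from 69.6 to 47.7 CPM on average, which was -0.55 on the log2 scale (SE 0.08; edgeR adjusted p = 1.47e-05), and FJX1 fell by 0.31. The most abundant genes of the list, MYOF and NT5E, had log2 fold changes of -0.14 and 0.067 that did not pass. The number that passed the adjusted p-value was 3 without vehicle replicate 1 and 4 without vehicle replicate 2, and without Liq replicate 1 IGFBP3 reached 1.5-fold, at -0.60.

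**Figure D5:**
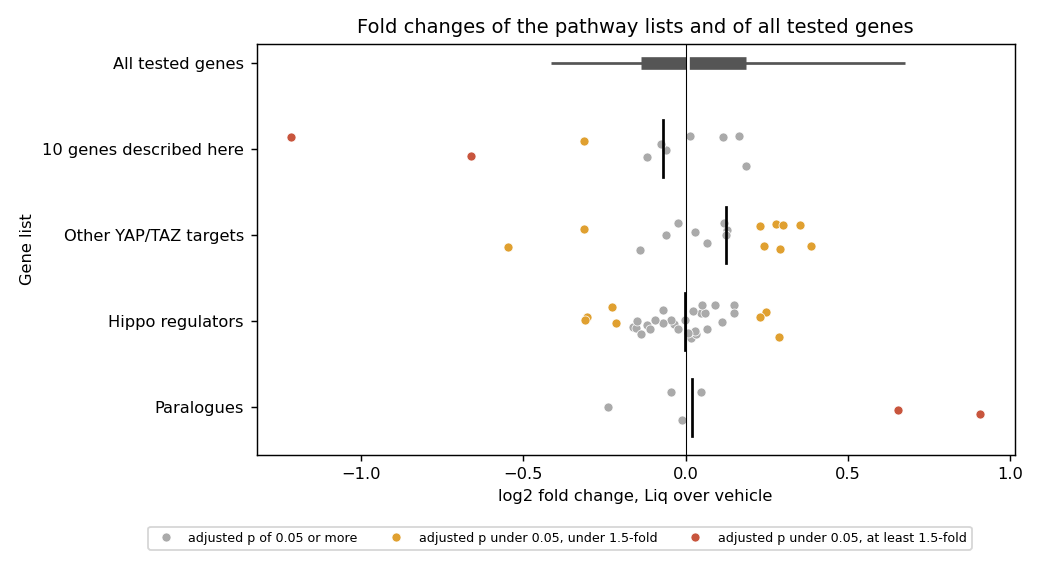
Log2 fold changes of Liq over vehicle (horizontal axis) for the genes of 4 lists (vertical axis), 1 point per tested gene, coloured by whether it passed the adjusted p-value and 1.5-fold, with the median of each list as a black line. For all tested genes the thick bar spans the 25th to 75th and the thin line the 5th to 95th percentile. Genes past both thresholds stand only among the 10 genes (CTGF and ANKRD1, lower) and the paralogues (WISP1 and ANKRD23, higher).

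A list of 36 upstream regulators of the Hippo cascade and cofactors of TEAD was written from general knowledge, with earlier results of these data known. Of these, 33 were tested. None was called at 1.5-fold with edgeR (0 at an unadjusted p under 0.05 and 0 with DESeq2), against 6.45% of all tested genes, and 7 passed the adjusted p-value alone, 3 higher and 4 lower, where 24.0% of all tested genes passed that threshold. The kinase gene STK4 (MST1) fell by 0.30 in log2 terms with an SE of 0.075 (edgeR adjusted p = 0.00421), the protocadherin gene DCHS1 fell by 0.31 and the kinase genes TAOK1 and CSNK1E by 0.23 and 0.22. The scaffold genes WWC1 (KIBRA) and WWC3 rose by 0.25 and 0.23 and the protocadherin gene FAT4 by 0.29. NF2, which encodes Merlin, and the core components STK3, SAV1, MOB1A and MOB1B had log2 fold changes between -0.071 and 0.048 that did not pass. The most abundant genes of the list, MAP4K4 and the YAP-binding phosphatase gene PTPN14, had log2 fold changes of -0.12 and -0.022. PTPN14 is also in the list of other YAP and TAZ targets. VGLL1 had 0 counts in all samples, and MAP4K1 and WTIP had at most 10 counts. The number that passed was 1 without vehicle replicate 1 (STK4) and 0 without vehicle replicate 2.

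Among 10 paralogues of the genes above, 6 were tested and 2 were called, both higher and both at low counts, where 6.45% of all tested genes were called and 4.29% were called higher. The CCN family gene WISP1 (CCN4) had 60 and 74 counts in vehicle and 128 and 145 in Liq, or 0.91 on the log2 scale with an SE of 0.2 (edgeR adjusted p = 0.00139). Without vehicle replicate 1 it was 0.70 with an adjusted p of 0.0501 from edgeR, and over all alternatives the adjusted p ranged from 1.66e-05 to that value. ANKRD23, a muscle ankyrin repeat gene related to ANKRD1, had 46 and 44 counts in vehicle and 76 and 77 in Liq, or 0.65 on the log2 scale with an SE of 0.24 (edgeR adjusted p = 0.0461). This call was lost without vehicle replicate 1 (log2 fold change 0.62), without vehicle replicate 2 (0.69), without Liq replicate 1 (0.42), with DESeq2 (0.67) and with offsets along the expression level (0.46). The CCN family gene NOV (CCN3) had 359 and 341 counts in vehicle and 270 and 377 in Liq, and its log2 fold change of -0.24 did not pass. LATS1, TEAD2 and TEAD3 had log2 fold changes of -0.044, -0.0096 and 0.047 that did not pass. WISP2, WISP3, ANKRD2 and AMOT had 0 to 2 counts per sample and were not tested. In the CCN family CTGF fell and WISP1 rose, whereas CYR61 and NOV did not pass.

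Genes with the most similar pattern over the 4 samples were sought among 9544 other genes with a mean of at least 10 CPM, by the Euclidean distance between log2 CPM values centred on the mean of each gene. Those nearest to CTGF were XDH, TXNIP and LPXN (distances 0.060, 0.075 and 0.082), whose log2 fold changes were -1.28, -1.28 and -1.29. Nearest to ANKRD1 were DOCK4, GPAM and NCEH1 (0.017, 0.017 and 0.024), and nearest to CYR61 were ADCY9, PAPPA2 and EHMT1 (0.011, 0.018 and 0.018). With 2 groups of 2 samples such a distance reflects little beyond the size of the fold change.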

How the data were processed

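RNA-seq libraries of the 4 ES2 samples were made by the authors with a TruSeq total RNA kit. Per the labels, reads were demultiplexed with bcl2fastq 2.17.1.14, aligned to hg19 (GRCh37) with TopHat2 2.0.8b and counted per gene with HTSeq. The deposited values are raw counts, whole numbers that were neither normalized nor pooled. The 5 tally lines of each table were left out. The samples were grouped by their titles.

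Counts were filtered with filterByExpr (minimum count 10, minimum total 15), normalized by TMM and compared in R 4.3.3 with edgeR 4.0.16 (glmQLFit, glmQLFTest, no replicate block), with Benjamini-Hochberg adjustment over all tested genes. The SE was the absolute log2 fold change divided by the square root of F. DESeq2 1.42.0 was an alternative, since DESeq was not installed. The fits were tested on simulated counts that had the same dispersion for every gene and changes only in genes with higher counts. That test does not cover calls at low counts. For 1 gene, 2 samples a group allow an exact permutation p of 0.3333 at the smallest.

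The genes and lists were chosen with earlier results of these data known. Named genes were the 10 genes, all paralogues, and in the other lists up to 5 genes a direction with the smallest p among those that passed, plus the 2 most abundant. Some cell type markers are not reported here. Positions and transcript lengths come from GENCODE lifted to GRCh37, and promoters from RefSeq (GRCh38.p14). Intervals and floors cover counting error and the spread between these samples only.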

Additional observations from a re-analysis of the deposited data

How the results depend on the processing

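With 2 samples per group, results were recomputed with other scalings, filters and tests, and 93 of 110 refitted fold changes of the 10 genes kept their direction and their side of the adjusted threshold. The number of the 10 genes called changed was 2 in every alternative fit and 1 at a fold change of at least 2. The number past the adjusted p-value alone, 3, became 5 with upper-quartile normalization and 6 with loess offsets, and ranged from 2 to 4 when each sample was left out in turn. The number of other targets called was 0 or 1 without single samples. The number of paralogues called was 1 with loess offsets, 1 with DESeq2, 0 at 2-fold and 0 to 2 without single samples. Over all genes 566 were called with DESeq2 and 328 at 2-fold, and 694 to 968 without single samples. Log2 fold changes near 0 changed sign for LATS2 (-0.0048 with loess offsets, -0.017 to 0.043 without single samples), YAP1 (0.038 with loess offsets, -0.14 to 0.019 without single samples) and TEAD4 (-0.15 to 0.0082 without single samples). The cause of these changes was not tested. In fits that leave 1 sample in a group, that sample is assumed to vary like the others.

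Samples with the same number share only a number, since nothing in the labels ties them to a shared culture or day. Across genes, their deviations from the group means correlated at 0.0483. With the replicate number as a block, 6 of the 10 genes passed the adjusted p-value (CYR61, AMOTL2 and TEAD1 in addition, all higher), 2 were called, 14 Hippo regulators passed the adjusted p-value and 898 of all genes were called.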
